A study of Mus musculus with 5 samples.

Results

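The miRNAs described here are 6 mature species that are best known from blood vessels: miR-126a-3p and miR-126a-5p, miR-143-3p, miR-145a-5p, miR-221-3p and miR-222-3p. They were found by name, as the probes for both arms of miR-126a and for the main arms of the other 4 genes, and they make up 6 of the 1900 mouse miRNAs on the arrays. Total RNA came from back skin of female mice. There was 1 single-colour array for each of 5 conditions: skin of 2-year-old (aged) animals before wounding (aged D0), their skin on days 3, 5 and 7 after a full-thickness punch wound made in telogen, the resting phase of the hair cycle (aged D3, D5 and D7), and skin of 8-week-old (young) animals before wounding (young D0). No strain, transgene, drug or other treatment is given for any group, and the sources do not say how many animals gave RNA to an array. Each array is a single measurement, so no difference between conditions could be tested, and a lower or higher signal from whole skin cannot separate fewer cells of a type from less miRNA per cell.

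miRNAs are short RNAs that guide Argonaute proteins to matching sites in messenger RNAs, which are then degraded or translated less, and bases 2 to 8 of the miRNA, the seed, carry most of the recognition. miR-126 is the classical miRNA of endothelial cells. It is made from an intron of Egfl7, a gene for a protein secreted by endothelium, and by restraining inhibitors of VEGF signalling such as Spred1 it supports growth and integrity of vessels. miR-143 and miR-145 are transcribed together in vascular smooth muscle under serum response factor and myocardin and keep these cells in their contractile state, while miR-221 and miR-222, which repress Kit and the cell cycle inhibitor Cdkn1b, are linked with proliferation of smooth muscle and with restraint of endothelial sprouting. In the skin a wound destroys vessels and is then filled with newly grown ones, so these genes represent the vascular side of repair.

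The sequences of miR-126a and of miR-221 and miR-222 are shown because the first separates the arm that gave signal from the one that gave next to none, and the others share a seed. Capitals mark the seed, bases 2 to 8 from the 5′ end. The sequence of miR-126a-5p is the target given in the scanner files, and the other 3 are the mature sequences of RefSeq on the GRCm38.p6 build.
miR-126a-3p (chr2:26591402-26591423, plus strand): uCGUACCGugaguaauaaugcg
miR-126a-5p: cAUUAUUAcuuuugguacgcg
miR-221-3p (chrX:19146307-19146329, minus strand): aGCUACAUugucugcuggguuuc
miR-222-3p (chrX:19146901-19146923, minus strand): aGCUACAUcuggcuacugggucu

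miR-221-3p and miR-222-3p have the same first 8 bases and differ after them, and their mature sequences lie 571 bases apart on the X chromosome with no other annotated gene between. The array's target for miR-222-3p ends 2 bases short of the RefSeq sequence and is otherwise the same. Among the miRNAs of the array the seed of this pair is shared only by miR-1928, whereas the seeds of both miR-126a arms and of miR-143-3p are shared by no other. miR-145a-5p shares its seed and its first 17 bases with miR-145b, a separate probe, and cross-hybridisation between the probes was not tested. In the annotation Mir126a lies inside Egfl7, and Mir143 and Mir145a are neighbours, with the non-coding RNA gene Carmn reaching across the interval between them. RefSeq's mature table held 3 of the 6 members.

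Signals are scanned spot intensities on a linear scale, and each miRNA has 2 repeat spots, whose spread describes the array and not the animals. A miRNA was called detected on an array when its mean intensity exceeded the 95th percentile of the 4 empty spots, a level between 58.3 at D3 and 107 in young D0, and bright when it exceeded this level 2-fold. Between 589 (aged D0) and 1768 (D3) of the 1900 miRNAs were detected and between 210 and 342 were bright, with 199 bright on all 5 arrays. The empty spots all lie in row 1, and their mean was 52.9 at D3, below the median miRNA spot of 68.5. At aged D0 these values were 96.9 and 97.4, so calls near the detection level are not alike between arrays. The 4 keratinocyte miRNAs used to check the tissue (miR-200a-3p, miR-200b-3p, miR-203-3p and miR-205-5p) were detected on every array. Ratios between arrays were taken after background correction and quantile normalization, which gives all 5 arrays the same distribution. From the repeat spots of bright miRNAs, the SD of a log2 ratio averaged over 2 spots was 0.14 for D3 over aged D0 and 0.13 for D5. It was 0.25 for D7 and 0.14 for aged over young D0, and the ratio of a single spot varies more than this.

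miR-126a-3p gave strong signal in every condition. Unwounded aged skin gave a scanned intensity of 3101, the wounds gave 1816, 2251 and 3690 on days 3, 5 and 7, and young skin gave 7508, so that the probe stood at 29.4 times the detection level or more on every array. It was dimmest on day 3 and brightest in young skin, but the bright miRNAs of the aged D0 array had a median of only 0.460 of their intensity on the young array, and in the authors' processed table the same miRNA stood at 3059, 2764, 3680, 3265 and 3440 in the same order of arrays, a much narrower range. The repeat spots of this probe also lay far apart. They read 3628 and 2574 at aged D0, 3130 and 4250 at D7, and 8881 and 6134 in young D0. The first spot was 1.41 times the second at aged D0 and 0.737 times the second at D7, against medians of 1.04 and 0.930 over the bright miRNAs of those arrays. Its spots lie in rows 19 and 119, whereas other bright members have closer spots, as in rows 51 and 73 for miR-143-3p. Dim miRNAs of the first and of the last rows had medians of 105 and 75.2 at aged D0, 103 and 115 at D7, and 87.2 and 90.4 in young D0. Separation by repeat spots is thus not like for like between members, and an effect of position was not tested. Placed in order after normalization (D5, D7, aged D0, young D0, D3), no neighbouring pair of arrays was separated by its repeat spots. Both D3 spots (log2 values 11.39 and 11.06) did lie below both spots of aged D0 (11.89 and 11.53), of D5 and of D7, and overlapped only young D0.

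miR-126a-5p, the other arm of the same hairpin, lay at the level of empty spots. It read 73.5 in unwounded aged skin, 53.8, 48.6 and 95.2 in the wounds of days 3, 5 and 7, and 109 in young skin, and only the last exceeded its array's detection level, by a factor of 1.02. One of its spots in young D0 (128) was above that level and the other (91.0) was not. Both arms of miR-126b, which is encoded on the opposite strand of the same place and whose 5p arm overlaps miR-126a-3p by 19 bases, were not detected on any array. Signal from this locus in skin thus came from 1 of 4 probes.

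miR-143-3p had the wider range of the smooth muscle pair. From 4755 units before wounding, aged skin went to 1324, 1356 and 3080 on days 3, 5 and 7, and young skin had 8651, so that both early wound arrays were low and D7 lay in between. In the processed table it stood at 4353, 2041, 2179, 2712 and 3794. After normalization the order was aged D0, young D0, D7, D5 and D3, and the repeat spots of every neighbouring pair of arrays were separate. Its passenger arm, miR-143-5p, was detected only at D3 and D7, at 1.18 and 1.08 times the detection level. These calls followed the detection level of each array, since it read 97.3 at aged D0, where it was not detected, and 68.6 at D3. Its normalized log2 values lay between 6.27 (D7) and 6.39 (young D0).

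miR-145a-5p, which is cut from the same primary transcript as miR-143, gave 5226 units in aged skin before wounding, 1759 on day 3, 2346 on day 5, 4317 on day 7 and 10465 in young skin. Its processed values were 4703, 2676, 3623, 3945 and 4926. It had the same order of arrays as miR-143-3p after normalization, but aged and young D0 were not separated by their repeat spots, nor were D7 and D5, and D3 stood alone at the bottom. The other arm, miR-145a-3p, was detected on all 5 arrays and bright only in young D0, with 164.5, 93.4, 74.97, 184 and 405 units from aged D0 through D7 to young D0. The probe for miR-145b, which is alike in its first 17 bases, gave 3374, 1226, 1854, 3693 and 9649 units, with D3 again the lowest.

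miR-221-3p behaved differently from the miRNAs above: of the 4 aged arrays it was brightest at D3. The 4 readings were 1065 before wounding, then 1408, 725 and 1127, and young skin read 2117. Its processed values were 1121, 2059, 1027, 927 and 832, with D3 the highest of all 5 arrays. It belongs, like miR-222-3p, to the miRNAs that the study itself selected from these arrays together with arrays of young wounds, which were not analysed here.

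miR-222-3p, its partner in the same cluster, had the same order of arrays. The aged arrays gave 709 units before wounding and 865, 475 and 695 units on days 3, 5 and 7, the young array gave 1138, and its processed values were 773, 1170, 617, 522 and 447. After normalization both miRNAs ran from D3 through aged D0, D5 and D7 down to young D0. Repeat spots separated all neighbours in this order except D7 and young D0 for miR-221-3p. The 5p arms of this pair stayed within 0.808 and 1.22 times the detection level on all arrays.

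**Figure D1:**
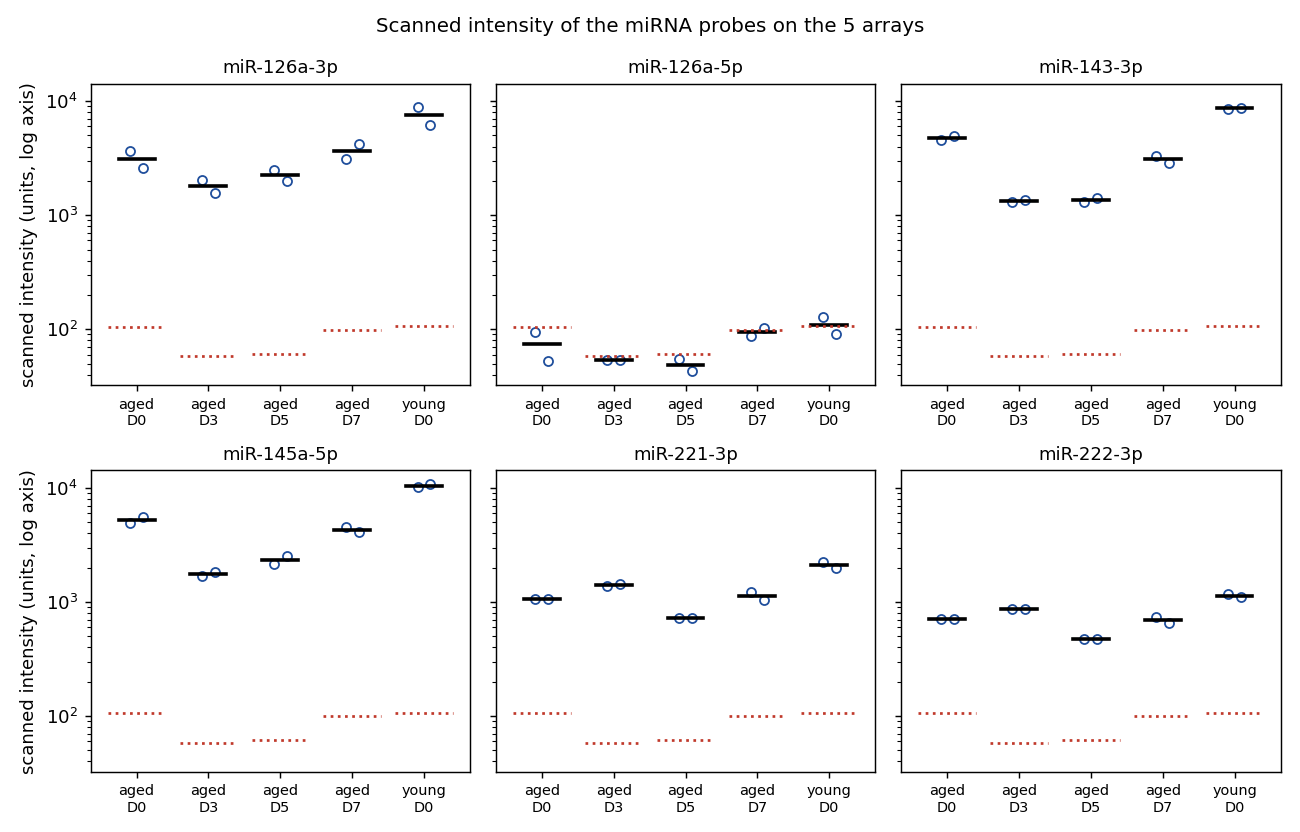
Scanned intensity (units of the scanner, log axis) of the 6 miRNAs on the 5 arrays, with each repeat spot as a circle, their mean as a black bar and the detection level of each array as a dotted red line. Of the aged arrays, miR-143-3p (1324) and miR-145a-5p (1759) were lowest at D3, where miR-221-3p (1408) and miR-222-3p (865) were highest, and miR-126a-5p stayed around the detection level.

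The first comparison asks how these miRNAs stood on day 3 of wounding in aged skin, when inflammation is under way and new vessels begin to form. miR-143-3p and miR-145a-5p were lower in the wound, at 0.356 (repeat spots 0.368 and 0.344) and 0.444 (0.455 and 0.433) of their unwounded values. miR-126a-3p was at 0.714 (0.706 and 0.722). miR-221-3p and miR-222-3p were higher in the wound, with ratios of 1.39 (1.35 and 1.44) and 1.19 (1.20 and 1.17), though not when arrays were scaled to the spike controls. The smooth muscle pair and the miR-221 cluster therefore lay on opposite sides of 1 on both spots under quantile normalization, and on opposite sides of the median of the bright miRNAs.

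Of the 5 members detected on at least 1 of these arrays, 2 were at least 2-fold lower (miR-143-3p and miR-145a-5p) and 0 at least 2-fold higher. Over all 1772 miRNAs detected there, 2.65% were 2-fold lower and 3.44% 2-fold higher. Among the 207 bright miRNAs, with which these members are better compared, 19.8% were 2-fold lower and 14.5% higher. The median ratio of the bright miRNAs was 0.781, so a ratio of 1 is not the middle of this comparison. Relative to that median miR-126a-3p stood at 0.914, miR-143-3p at 0.456, miR-145a-5p at 0.568, miR-221-3p at 1.78 and miR-222-3p at 1.52. By rank, 187 bright miRNAs were higher than miR-143-3p and 19 lower, and 44 were higher than miR-221-3p and 162 lower, whereas miR-126a-3p sat near the middle with 118 above and 88 below.

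Day 3 depended in part on how the arrays were scaled to each other. Under 8 other scalings, which included the authors' processed values, miR-143-3p lay between 0.181 and 0.469 and miR-145a-5p between 0.219 and 0.569, and cyclic loess and the processed values took miR-145a-5p out of the 2-fold count. The ratio of miR-126a-3p was between 0.382 and 0.904. miR-221-3p was above 1 in 7 of the 8, up to 1.84 in the processed values, and at 0.858 when arrays were scaled to the spike controls. miR-222-3p was above 1 in the same number, between 0.793 with the spike controls and 1.69. The spike controls, probes for control oligonucleotides, were themselves 1.54 times as bright at D3 as at aged D0. Relative to the bright median, miR-221-3p stayed between 1.63 and 2.05 and miR-222-3p between 1.49 and 1.69 in these scalings. Scalings by a factor shared by the whole array leave these relative values unchanged by construction.

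On day 5, in the phase of proliferation, miR-126a-3p had the highest ratio of the 5 bright members. Its ratio to aged D0 was 1.17 (repeat spots 1.10 and 1.24), 1.25 times the bright median of 0.932. Whether it lay above 1 or above the bright median rested on the scaling, since 3 of the 8 alternatives gave a ratio above 1, the range was 0.551 to 1.22, and the other 5 put it at 0.943 of the bright median. Those 5 apply no scaling or a factor shared by the whole array, so their relative value is the same by construction. miR-143-3p remained low at 0.447 (0.432 and 0.462), with 193 of the other bright miRNAs above it and 10 below. miR-145a-5p was at 0.765 (0.766 and 0.763), no longer 2-fold lower, and 134 bright miRNAs stood above it.

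On this day miR-221-3p was at 0.866 (0.878 and 0.855) and miR-222-3p at 0.785 (0.800 and 0.770), both below 1 in all 8 alternatives. In all, 1 of 5 members, miR-143-3p, was at least 2-fold lower, where the share over 1079 detected miRNAs was 2.41% and over 204 bright ones 9.8%. miR-143-3p left this count in the processed values, at 0.501, and miR-145a-5p joined it with no normalization, the 75th percentile, the spike controls and the 5S probes. None was 2-fold higher, against 2.87% of detected miRNAs.

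On day 7 the miR-126a-3p ratio was 1.02, but this is the mean of spots at 0.779 and 1.33, and the alternatives ran from 0.741 to 1.41. A level above or below that of unwounded skin cannot be told from these spots. miR-143-3p was at 0.578 (0.655 and 0.510) and miR-145a-5p at 0.768 (0.877 and 0.672). Both were below 1 in all 8 alternatives. miR-221-3p was at 0.745 (0.795 and 0.699) and miR-222-3p at 0.625 (0.677 and 0.577). For these the direction changed with the scaling, as 4 of 8 alternatives put miR-221-3p above 1 and 1 of 8 did so for miR-222-3p.

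No member passed 2-fold on day 7 in either direction, where 1.79% of 1565 detected miRNAs were 2-fold lower and 2.56% higher. At 1.5-fold 2 members were lower, miR-143-3p and miR-222-3p, against 5.56% of the detected and 23.2% of the 203 bright miRNAs. Repeat spots differed more in this comparison than in the others.

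**Figure D2:**
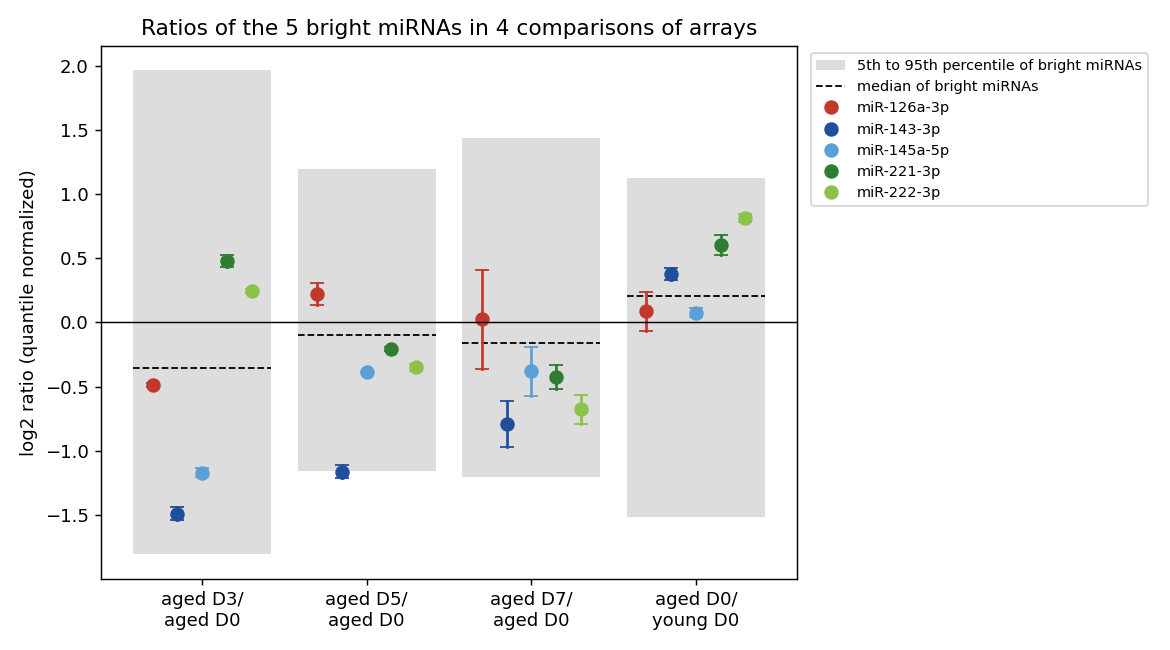
Log2 ratio of the 5 bright members in each of the 4 comparisons, after quantile normalization; points are means of the 2 repeat spots, bars run from one spot's ratio to the other's, grey boxes span the 5th to 95th percentile of the bright miRNAs and dashed lines their median. At D3 miR-143-3p (0.356) and miR-145a-5p (0.444) lay below the median and miR-221-3p (1.39) and miR-222-3p (1.19) above it, while the bar of miR-126a-3p crosses 0 at D7. Values above 0 in aged over young D0 turn below 0 in other scalings.

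The last comparison sets unwounded aged skin against unwounded young skin. All 5 bright members had ratios above 1 after quantile normalization but each fell below 1 in other scalings, led by miR-222-3p with 1.76 (repeat spots 1.72 and 1.80) and miR-221-3p with 1.52 (1.44 and 1.60). miR-143-3p followed with 1.30 (1.26 and 1.34), and miR-126a-3p and miR-145a-5p were at 1.06 (0.956 and 1.18) and 1.05 (1.03 and 1.08). None of these directions was independent of the scaling. The scanned intensities themselves were lower in aged skin for all 5, at 0.413 for miR-126a-3p, 0.550 for miR-143-3p, 0.499 for miR-145a-5p, 0.503 for miR-221-3p and 0.623 for miR-222-3p, on an array pair whose bright miRNAs had a median of 0.460.

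Of the 8 alternative scalings, 4 placed miR-221-3p, miR-222-3p and miR-143-3p above 1, 3 did so for miR-145a-5p and 2 for miR-126a-3p. The place among the bright miRNAs was steadier. Against a bright median of 1.16, miR-222-3p was at 1.52 and between 1.36 and 1.68 in the alternatives, with 29 bright miRNAs above it and 180 below. miR-221-3p was at 1.31 of the median (1.09 to 1.35), miR-143-3p at 1.12 (1.07 to 1.19) and miR-126a-3p at 0.918 (0.832 to 0.924). For miR-145a-5p the relative value was 0.912, and it crossed 1 in the alternatives (0.894 to 1.08).

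None of the 6 members detected on these arrays passed 2-fold, where 2.31% of 779 detected miRNAs were higher and 6.03% lower in aged skin. At 1.5-fold 2 were higher, miR-221-3p and miR-222-3p, against 8.22% of the detected and 22.9% of the bright miRNAs, with the scaling again deciding the direction. miR-126a-5p, the sixth member, was below detection on the aged array and at its edge on the young one, so that no fold is given.

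**Figure D3:**
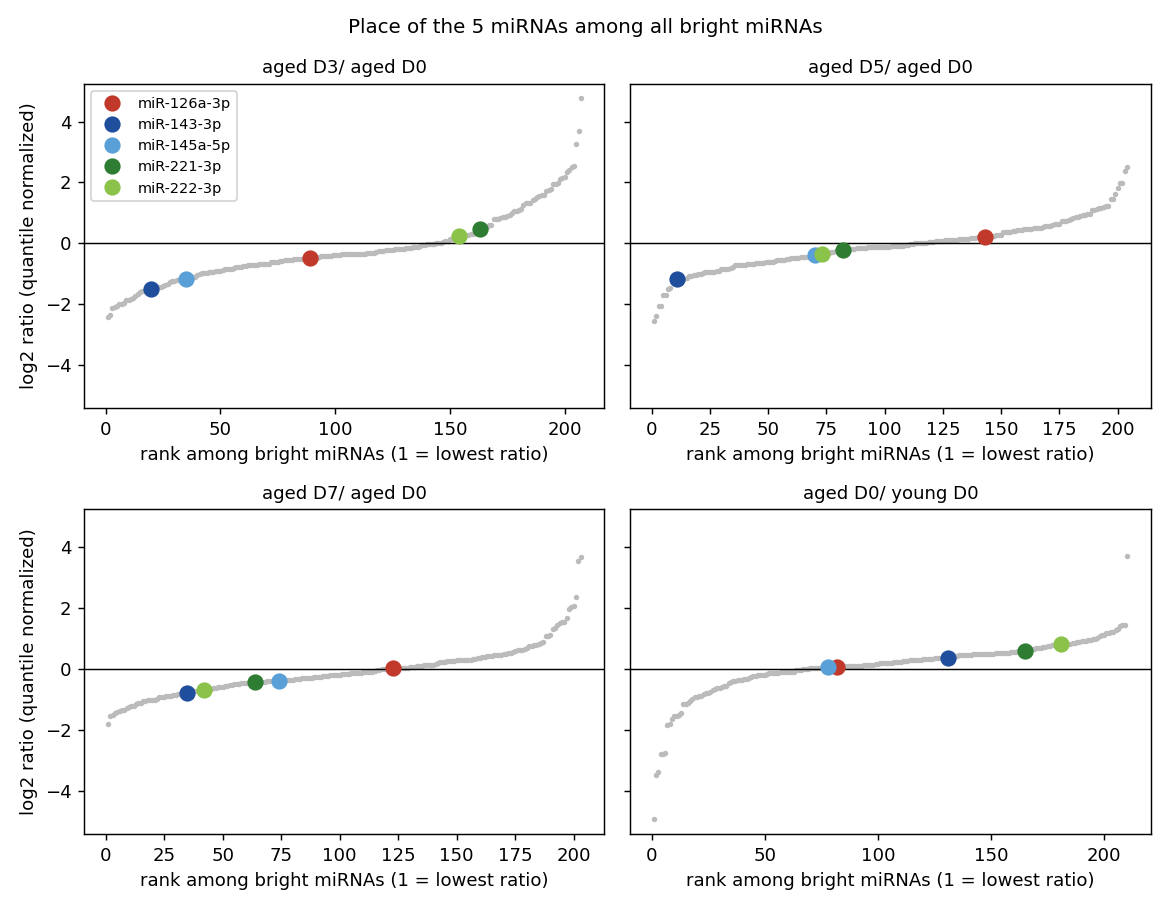
Log2 ratios of all bright miRNAs (grey) ordered from the lowest, in the 4 comparisons, with the 5 bright members in colour. miR-143-3p was among the lowest at D3 (187 above, 19 below) and D5 (193 above, 10 below), miR-126a-3p kept to the middle part of the range, and miR-222-3p ranked highest of the members in aged over young D0 (29 above, 180 below), a comparison whose zero line moves with the scaling.

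**Figure D4:**
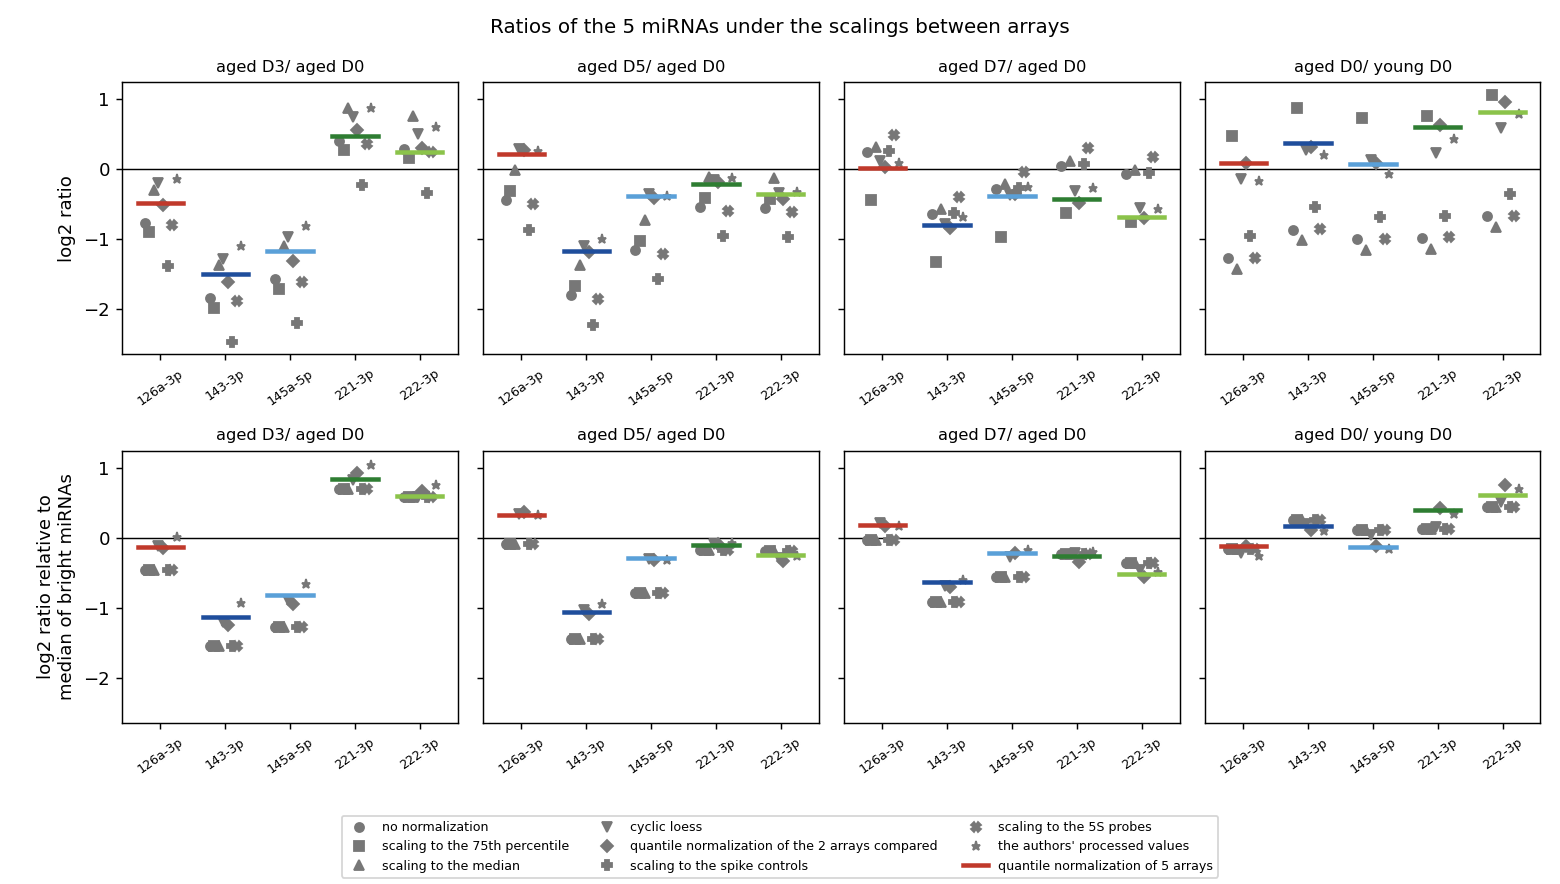
Log2 ratios of the 5 bright members under quantile normalization (coloured bars) and 8 other scalings (grey symbols), as such in the upper row and after division by the bright median in the lower row. In the lower row, scalings by a factor shared by the whole array coincide with no normalization by construction. In the upper row the side of 0 depends on the scaling in aged over young D0, for miR-126a-3p at D5 and D7, and for miR-221-3p and miR-222-3p at D3 and D7, whereas in the lower row miR-143-3p stayed below 0 on every day of wounding and miR-221-3p and miR-222-3p stayed above 0 at D3.

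Ratios of ratios between members on the same 2 arrays are not moved by any factor shared by the whole array, and the ranges given for them cover the other settings apart from the single repeat spots. At D3 the change of miR-221-3p was 1.95 times that of miR-126a-3p (1.91 to 2.24), and at D5 it was 0.742 times (0.727 to 0.937, with single spots at 0.797 and 0.692). The order of these miRNAs thus turned between day 3 and day 5. At D7 the value was 0.732, but the first spots gave 1.02 and the second spots 0.526. In aged over young skin it was 1.43 (1.22 to 1.51).

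Within the wounds miR-126a-3p stood higher than miR-143-3p, each against its own unwounded value. Under quantile normalization it also stood higher than miR-145a-5p at D3 (0.714 and 0.444) and D5 (1.17 and 0.765). At D7 the means were 1.02 and 0.768, but the first spots had the reverse order, 0.779 and 0.877. The change of miR-126a-3p was 2.01 times that of miR-143-3p at D3 (1.93 to 2.15, single spots 1.92 and 2.10), 2.61 times at D5 (2.40 to 2.74) and 1.76 times at D7 (1.71 to 1.87), where the spots gave 1.19 and 2.61. The day 3, day 5 and day 7 values share the aged D0 array and are not independent of one another. In aged over young D0 the corresponding value was 0.816 (0.753 to 0.851, single spots 0.760 and 0.877).

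miR-143-3p and miR-145a-5p come from 1 primary transcript, yet their ratios differed by more than their repeat spots. The ratio of their changes was 0.802 at D3 (0.794 to 0.828), 0.585 at D5 (0.576 to 0.650, single spots 0.564 and 0.606), 0.753 at D7 (0.713 to 0.781) and 1.23 in aged over young D0 (1.10 to 1.24). miR-143-3p was the lower of the pair on each day of wounding and on both repeat spots. Under quantile normalization miR-221-3p and miR-222-3p kept closer, with 1.17 at D3, 1.10 at D5, 1.19 at D7 and 0.864 for aged over young D0. In aged over young D0 the closer pair changed with the scaling. With no normalization miR-221-3p over miR-222-3p was at 0.806 there and miR-143-3p over miR-145a-5p at 1.10. The miR-143 pair was thus the closer in that setting, and also in the processed values.

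Likeness of pattern was measured over the 5 arrays as the root mean square difference of log2 values, each miRNA being centred on its own mean, against the other 198 miRNAs bright on all arrays. The nearest miRNA to miR-221-3p was miR-222-3p, at 0.09, and the reverse held too. The next nearest lay farther off, miR-7235-5p at 0.16 and miR-3068-3p at 0.19 for miR-221-3p, and miR-532-5p at 0.18 and miR-3068-3p at 0.19 for miR-222-3p. The median distance to all compared miRNAs was 0.60 for each of the pair.

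miR-143-3p and miR-145a-5p were not each other's nearest. Their distance was 0.25, which ranked 16th from miR-143-3p and 22nd from miR-145a-5p. miR-143-3p was closest to miR-195a-5p and miR-151-5p (both 0.09) and to miR-193b-3p (0.14), and miR-145a-5p to let-7c-5p (0.07), let-7a-5p (0.09) and miR-193a-3p (0.11). miR-126a-3p was closest to let-7i-5p (0.09), miR-24-3p (0.10) and miR-30d-5p (0.11). These are distances over 5 arrays, a small number, and they describe the arrays only.

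A list of 25 further miRNAs known from angiogenesis, among them the miR-17-92 and miR-23-27-24 clusters and miR-210-3p, set the background for miR-126a-3p. Its median ratio was 0.885 at D3, 0.939 at D5, 1.03 at D7 and finally 1.09 in aged over young D0, where all detected miRNAs had medians of 0.999, 1.03, 1.02 and 0.990 and the bright ones 0.781, 0.932, 0.895 and 1.16. The list thus lay below the detected and above the bright miRNAs at D3, and the reverse in aged over young D0. At D3 0 of these 25 were 2-fold higher and 3 were 2-fold lower, the lowest being miR-378a-3p at 0.275 and the highest miR-503-5p at 1.64. There 3.44% of detected miRNAs were higher and 2.65% lower, and 14.5% and 19.8% of bright ones. At D5 1 of 24 detected was 2-fold higher, miR-503-5p at 2.59, and 3 were 2-fold lower (2.87% and 2.41% of detected miRNAs). Of the bright miRNAs 9.8% were 2-fold lower at D5. At D7 1 of 25 was higher and 2 were lower (2.56% and 1.79%). In aged over young D0 2 of 23 were higher and 2 were lower (2.31% and 6.03%). The highest there was miR-210-3p, the hypoxia-induced miRNA, at 2.76.

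A second list held 11 miRNAs studied in smooth muscle besides the miR-143 cluster. Its median ratio was 0.668 at D3, 0.666 at D5, 0.826 at D7 and close to 1.0 in aged over young D0, while the bright miRNAs had 0.781, 0.932, 0.895 and 1.16. At D3 4 of the 11 were 2-fold lower and 1 higher, where 2.65% and 3.44% of detected and 19.8% and 14.5% of bright miRNAs passed. At D5 2 were lower and 1 higher (2.41% and 2.87% of detected miRNAs), where 9.8% of bright miRNAs were lower. At D7 1 was lower and 2 higher (1.79% and 2.56% of detected miRNAs), and in aged over young D0 3 were lower and 0 higher (6.03% and 2.31%). The highest in each wound was miR-21a-5p, an injury-induced miRNA, at 5.70, 3.95 and 5.17. The lowest at D3 and D5 was miR-1a-3p, at 0.253 and 0.170, and the lowest at D7 was miR-133a-3p, at 0.458. Both are also on the list of skeletal muscle miRNAs below, all of which were 2-fold lower at D3. The counts of these lists at D3 thus overlap.

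miRNAs of other cell types differed between the same arrays. For the counts at D3, 3.44% of all detected miRNAs were 2-fold higher and 2.65% lower, and 14.5% and 19.8% of the bright ones. Of 4 leukocyte miRNAs, 3 were 2-fold higher at D3 and the summed scanned intensity of the 4, not scaled between arrays, was 778 before wounding, 3887, 2212 and 3851 on the 3 days of wounding and 5568 in young skin. All 4 skeletal muscle miRNAs were 2-fold lower at D3, with sums of 32805, 6780, 7225, 15455 and 64973 in the same order. Of 4 keratinocyte miRNAs 3 were 2-fold lower at D3, with sums of 34892, 11391, 15781, 24670 and 40192. Not all of the miR-200 family, to which miR-200a-3p and miR-200b-3p belong, was lower at D3. Outside the list, miR-200c-3p had a log2 ratio of 1.07, and miR-429-3p and miR-141-3p had -1.79 and -1.09. The 3 fibroblast miRNAs were between 0.657 and 0.806 at D3, and their sums were 7542, 4688, 7046, 17035 and 17132. The 3 erythroid miRNAs had ratios between 0.236 and 0.925 at D3, and their sums were 2034, 982, 1284, 1178 and 2496. The sums also carry the brightness of each array, and scanned intensities of bright miRNAs had a median ratio of 0.460 in aged over young D0. After quantile normalization the median ratio of aged over young D0 was 0.255 for the leukocyte, 0.966 for the skeletal muscle and 1.28 for the keratinocyte miRNAs. It was 1.04 for the fibroblast and 2.13 for the 2 detected erythroid miRNAs. Under the same normalization the bright miRNAs had a median of 1.16 and all detected ones 0.990. None of these lists had all its markers at background on any array, and their part in the values of miR-126a-3p, miR-143-3p and miR-145a-5p was not tested.

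Base composition also moved with the ratios at D3. Bright miRNAs with a GC content at or below the 25th percentile (42.9%) stood at a median of 0.656, those at or above the 75th (61.4%) at 1.53, and those between at 0.744. The members span 38.1% (miR-126a-5p) to 52.4% (miR-222-3p), and the 5 bright ones all lie between these percentiles. Within this range the miR-143 cluster and the miR-221 cluster are alike in GC content, at 47.6% and 52.2% against 47.8% and 52.4%. At D5 the medians were 0.907 for the low, 1.16 for the high and 0.906 for the middle group.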

How the data were processed

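The authors deposited, for each array, linear spot intensities as scanned, unnormalized and with empty background columns, and a table of processed intensities. The normalization behind that table is not given in the sources used here. Arrays were from a commercial provider, and RNA was labelled by adapter ligation with Cy3 staining. No array was left out. Per array, all spots were background corrected by normexp (limma 3.58.1, R 4.3.3) with an offset of 50, fitted on spot intensities, control spots were dropped, log2 values were quantile normalized over 5 arrays and the 2 repeat spots were averaged. Quantile normalization removes any change shared by all miRNAs. Tables and plots were made with Python 3.11.15, pandas 2.3.3, numpy 2.4.6 and matplotlib 3.10.9, and the pipeline was tested on simulated data. For the normalization, the simulated arrays were alike in brightness and background, with some bright miRNAs raised on 1 of them. They therefore do not show how it performs where arrays differ in these, as they do here. Intensities give no counts, so the number of arrays limits the precision. No test was run with 1 array per condition. Named miRNAs were all probes of the 6 members and of their other arms and close copies, the 3 nearest in pattern, and the extremes of each list. The keratinocyte miRNAs and other members of the miR-200 family were named as well. The members and lists were chosen with earlier results of these data known. Other scalings used no normalization, the 75th percentile, the median, cyclic loess, the 2 arrays compared, 11 spike controls, 5 probes for 5S RNA, or the processed values. Other settings were offsets of 16 and 100, no background correction, plain subtraction with a floor of 1, each spot alone, no detection filter, members bright on both arrays and thresholds of 1.5-fold and 3-fold. Processed values under 1 were set to 1.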

Additional observations from a re-analysis of the deposited data

How the results depend on the processing

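The number of members past 2-fold at D3 was 2 and became 1 with cyclic loess or the authors' processed values and 0 at 3-fold, and 3 with the spike controls, where miR-126a-3p joined at 0.382. At D5 it was 1, and it became 2 with no normalization, the 75th percentile, the spike controls or the 5S probes, and 0 with the processed values or at 3-fold. At D7 it was 0, with 1 lower under the 75th percentile and 2 lower at 1.5-fold. In aged over young D0 it was 0. There 2 were lower with no normalization, 4 with the median, and 1 each with the 5S probes, with plain subtraction and with the processed values, while 2 were higher with the 75th percentile and 2 at 1.5-fold. miR-126a-5p, close to background, was the member counted with plain subtraction and with the processed values and 1 of the 2 with the 75th percentile. The cause was not tested. Of 224 ratios of ratios, 223 stayed on their side of 1 across the settings, and so did 286 of 336 single ratios. These counts are not alike, because a factor shared by the whole array cancels in a ratio of ratios. With no normalization, the 75th percentile, the median, the spike controls and the 5S probes it thus has 1 identical value by construction. The brightness of the young array limits the age comparison, and repeat spots limit miR-126a-3p. miR-126a-5p was too dim for a ratio. No paired analysis was possible because every group holds 1 array. Leaving out an array would leave a condition without a value.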
